A study of Mus musculus with 6 samples.

Results

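The genes described here are the protein-coding mouse genes named Zfp and a number that have an H3K4me3 region at a promoter in prospermatogonia, germ cells of the fetal mouse testis. They were chosen by gene symbol and by a promoter-class region in H3K4me3 replicate 1, which named 213 of the 382 protein-coding Zfp genes of the annotation. The same kind of region was listed for 9568 of 21769 protein-coding genes (44.0%), and these 9568 genes are the background below unless another is named. Because H3K4me3 replicate 1 chose the genes, its widths and scores are given as a description, and TAF4b and H3K4me3 replicate 2 are the measurements that the choice did not use.

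The cells were male germ cells of the embryonic day E16.5, labelled C57BL/6 and Taf4b-wildtype. They came from matings of mice homozygous for an Oct4-EGFP transgene (B6;129S4-Pou5f1tm2Jae/J), in which the Oct4 locus drives a green fluorescent protein, and were sorted live on that fluorescence. CUT&RUN, in which a nuclease tethered to an antibody cuts out the DNA around its target, was run with antibodies to TAF4b and to H3K4me3, 2 replicates each, and with control IgG, whose 2 libraries were not analysed here. All groups share the age, sex, strain label and genotype, so that no group without TAF4b enters, and whether the replicates came from separate animals is not stated.

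Most Zfp proteins carry a row of C2H2 zinc fingers, each of which reads a few bases of DNA. Many also carry a KRAB box, which recruits the corepressor TRIM28 and through it the histone methyltransferase SETDB1, and these KRAB zinc finger proteins are known for silencing transposons and for guarding genomic imprints. Their genes lie largely in clusters that grew by tandem duplication. TAF4b is a germ-cell-enriched subunit of TFIID, the factor that binds core promoters, and H3K4me3 is a histone mark of active and poised promoters.

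The 4 lists differed greatly in size. H3K4me3 replicate 1 held 64891 regions and replicate 2 held 1730, while TAF4b replicate 1 held 7861 peaks and replicate 2 held 848. Read totals are not given with the lists, so the depth is unknown, and the intervals below (95% Wilson) cover counting error over genes only. Among marker genes, TAF4b replicate 1 had a promoter peak at 6 of 10 germ cell genes, Ddx4 and Dazl among them, and at 0 of 6 Sertoli and 0 of 6 Leydig or interstitial genes, beside 22.7% of all coding genes. TAF4b replicate 2 had one at 0 of the 10 germ cell genes, beside 3.13%. H3K4me3 replicate 1 had promoter regions at 5 of 10 germ cell genes, but also at 5 of 6 Sertoli genes and 3 of 6 Leydig or interstitial genes, beside 44.0% of all coding genes. H3K4me3 replicate 2 had one at 0 of the 10 germ cell genes, beside 4.13% of all coding genes. Both replicate 2 lists also had none at the 6 Sertoli and the 6 Leydig or interstitial genes. The part of these somatic genes' regions in the results below was not tested.

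TAF4b promoter peaks were listed at 87 of the 213 Zfp genes in replicate 1 and at 9 in replicate 2. In replicate 1 this is 40.8% of the genes (34.5 to 47.6), beside 37.9% of the background. The replicate 2 share is 4.23% (2.24 to 7.83), beside 5.49%. Both shares lie near the background, so that TAF4b was listed at Zfp genes about as often as at other coding genes with H3K4me3. The mean over the 2 libraries was 22.5% ± 25.9 (SD, n = 2) for the Zfp genes and 21.7% ± 22.9 (SD, n = 2) for the background. The spread between the libraries exceeded their mean, and the 2 replicates are therefore given separately throughout.

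All 9 Zfp genes of TAF4b replicate 2 were also among the 87 of replicate 1. At 8 of them the peaks of the 2 replicates overlapped, or 3.76% of the 213 genes (1.92 to 7.23), beside 4.65% of the background. The 9 genes are Zfp263, Zfp438, Zfp574, Zfp706, Zfp707, Zfp787, Zfp866, Zfp869 and Zfp91. Of the Zfp genes outside the 213, Zfp128 and Zfp654 also had peaks in both replicates. Replicate 1 peaks are shown next for 7 of the 9, because they are H3K4me3-marked Zfp promoters with a TAF4b peak in both libraries. The peak of Zfp787 left no stretch of the kind shown, and none is printed for Zfp438. Each line gives, 5′ to 3′ on the gene's strand (GRCm39), the stretch of the replicate 1 peak that lies upstream of the start site and outside exons. Capitals mark matches on either strand to 3 motifs. The GC box, bound by SP1-like factors, was searched as GGGCGG. The CCAAT box, bound by NF-Y, was searched by the letters of its name. The ETS site, bound by ETS-family factors, was searched as CCGGAAG.

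Zfp574 (chr7:24776464-24776606, plus strand): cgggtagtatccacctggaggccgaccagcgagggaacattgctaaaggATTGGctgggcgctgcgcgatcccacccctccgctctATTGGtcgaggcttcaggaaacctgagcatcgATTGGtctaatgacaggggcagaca
Zfp706 (chr15:37007649-37007766, minus strand): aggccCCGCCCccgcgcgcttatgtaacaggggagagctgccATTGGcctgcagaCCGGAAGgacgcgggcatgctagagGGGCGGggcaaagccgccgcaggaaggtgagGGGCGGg
Zfp263 (chr16:3561837-3561920, plus strand): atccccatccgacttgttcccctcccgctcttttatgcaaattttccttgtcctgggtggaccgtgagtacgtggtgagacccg
Zfp866 (chr8:70227567-70227637, minus strand): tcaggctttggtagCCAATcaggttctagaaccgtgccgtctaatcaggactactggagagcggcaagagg
Zfp869 (chr8:70169137-70169207, minus strand): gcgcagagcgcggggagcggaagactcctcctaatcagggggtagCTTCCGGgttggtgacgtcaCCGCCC
Zfp91 (chr19:12773518-12773556, minus strand): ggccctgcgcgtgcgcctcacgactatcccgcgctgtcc
Zfp707 (chr15:75840936-75840965, plus strand): ctggccCCGCCCtttaagtagCCGGAAGac

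These 7 stretches differ in what they hold. The Zfp574 stretch has 3 CCAAT matches and no GC box, that of Zfp706 has 3 GC boxes, 1 CCAAT box and 1 ETS site, and those of Zfp263 and Zfp91 have no match to the 3 motifs. Their GC content ran from 53.5% (Zfp866) to 74.4% (Zfp91). A match is a description of the letters and not a measured binding site.

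Zfp574, whose protein has 18 C2H2 fingers, had the highest TAF4b score of the Zfp genes in both libraries. The authors' peak score, used here only to rank peaks within a list, was 49.6 in replicate 1 (rank 43 of 7861) and 117.4 in replicate 2 (rank 37 of 848). Its peak centres lay 95 and 47 bp upstream of the start site, inside an H3K4me3 region of 1960 bp with a score of 128.2. Zfp787 followed, with a TAF4b score of 40.7 (rank 167) in replicate 1 and 72.9 (rank 214) in replicate 2. Its H3K4me3 promoter region in replicate 1 was among the weakest of all, at 500 bp and a score of 20.9, and it lay beside the TAF4b peak and not over it. Zfp706, a small protein with 1 finger, had scores of 39.2 (rank 208) and 56.7 (rank 456), in an H3K4me3 region of 2144 bp.

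Zfp91, known as a ubiquitin ligase and as a substrate of cereblon-binding drugs, had TAF4b scores of 29.3 (rank 798) and 60.7 (rank 382). Zfp438, on chromosome 18, had 23.3 (rank 1634) and 56.7 (rank 456). Zfp263, a SCAN-domain protein, had 24.8 (rank 1362) and 48.6 (rank 635). No KRAB box was found in the proteins of these 3 genes. The other 3 of the 9 genes encode KRAB proteins. Zfp707 had 25.8 (rank 1201) and 48.6 (rank 635), and Zfp866 had 31.3 (rank 608) and 48.6 (rank 635). The Zfp866 peaks had centres 5 and 4 bp upstream of a start site, at chr8:70227495-70227637 in replicate 1, and stood apart from the gene's widest H3K4me3 promoter region at chr8:70243356-70244862. Zfp869 was the gene at which the 2 peaks did not overlap, at chr8:70169084-70169226 in replicate 1 and chr8:70169544-70169732 in replicate 2, with scores of 15.4 (rank 3618) and 72.9 (rank 214). Zfp866 and Zfp869 belong to the same cluster on chromosome 8.

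The 9 genes stood high in the replicate 1 list, as the plot of TAF4b percentile against H3K4me3 width shows. Their percentile in replicate 1 (100 being the highest score) had a median of 89.5 and ran from 52.8 to 99.4, while the 78 genes with a peak in replicate 1 alone had a median of 57.0 and ran from 0.458 to 92.0. Over all 87 genes the median was 60.7, lower than the 64.3 of the 3625 background genes with a peak in replicate 1. The median for all promoter peaks of the list was 58.9, which counts peaks and not genes. In replicate 2 the 9 genes ran from percentile 19.8 to 95.6 with a median of 41.5, below the median of 50.8 for that list's promoter peaks.

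**Figure D1:**
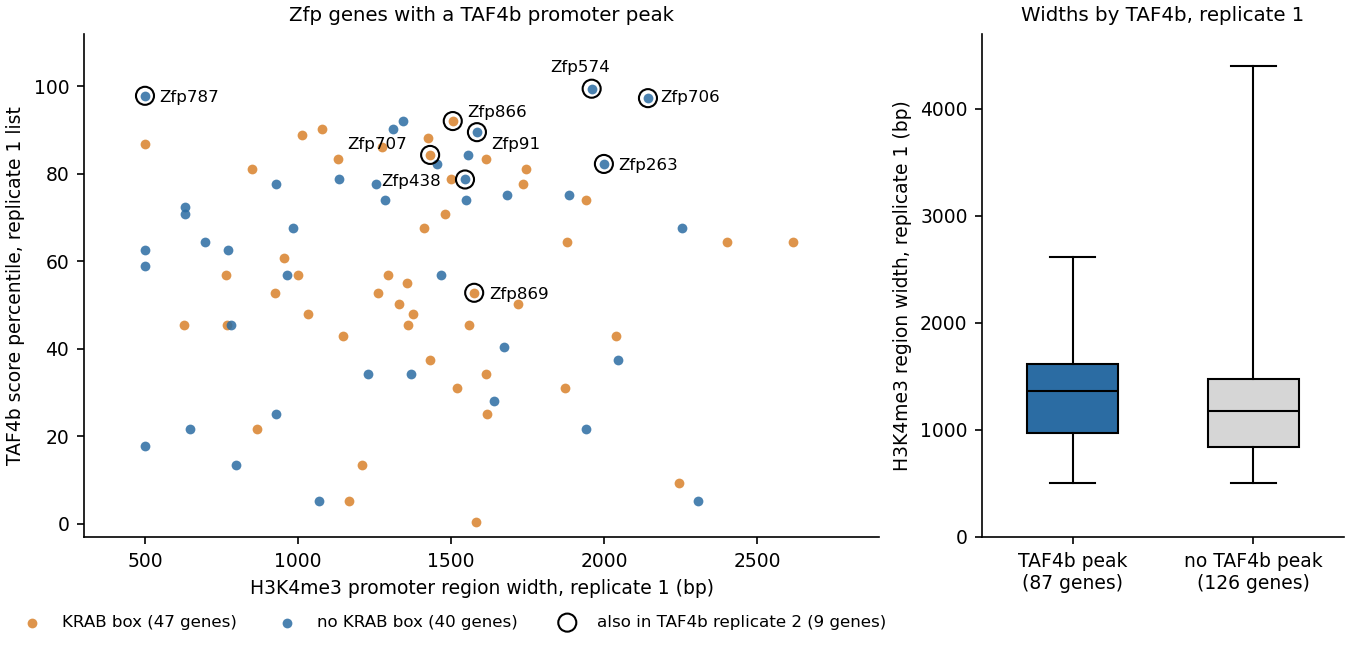
Left, each point is 1 of the 87 Zfp genes with a TAF4b promoter peak in replicate 1, placed by the width of its H3K4me3 promoter region (bp) and by the percentile of its TAF4b score in the list; colours mark KRAB genes (47) and others (40), and circles the 9 genes also in replicate 2. Right, boxes give quartiles and median and whiskers the full range of H3K4me3 width for the 87 genes with a peak (median 1360 bp) and the 126 without (median 1173 bp); 8 of the 9 circled genes lie above percentile 78 and Zfp869 lies at 52.8.

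The highest TAF4b scores in replicate 1 after Zfp574, Zfp787 and Zfp706 were those of Zfp444 and Zfp866 (31.3 each, rank 608), Zfp667 and Zfp174 (29.8 each, rank 755) and Zfp91 (29.3). Zfp444, Zfp667 and Zfp787 are neighbours in a single cluster on chromosome 7. The lowest were Zfp558 (6.95, rank 7796) and then Zfp36, Zfp57 and Zfp644 (7.94 each, rank 7270). In total 11 of the 87 genes fell in the lowest 25% of the whole list by score, 20 in the next, 28 in the next and 28 in the highest. The same shares over background genes were 12.6%, 21.9%, 29.7% and 35.9%, beside 12.6%, 23.0%, 32.2% and 32.2% for the Zfp genes.

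TAF4b peaks sat just upstream of Zfp start sites. The centre of the peak lay upstream at 79 of 87 genes (90.8%, 82.9 to 95.3), beside 82.1% of background genes with a peak (80.8 to 83.3). The deposited distance had a median of -46 bp for the Zfp genes, with quartiles of -78 and -18.5 bp, and of -52 bp for the background, with quartiles of -101 and -11 bp. Within 150 bp upstream lay 74 of 87 Zfp peaks (85.1%), beside 69.5% of the background. The farthest were Zfp36 at -888 bp, Zfp696 at -411 bp and Zfp541 at -202 bp, and none lay more than 41 bp downstream. In replicate 2 the 9 centres ran from -139 to 26 bp with a median of -44 bp. The peak overlapped the gene's own H3K4me3 promoter region at 80 of 87 genes (92.0%, 84.3 to 96.0), beside 89.9% of the background, and the exceptions were Zfp24, Zfp326, Zfp36, Zfp451, Zfp521, Zfp541 and Zfp787.

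**Figure D2:**
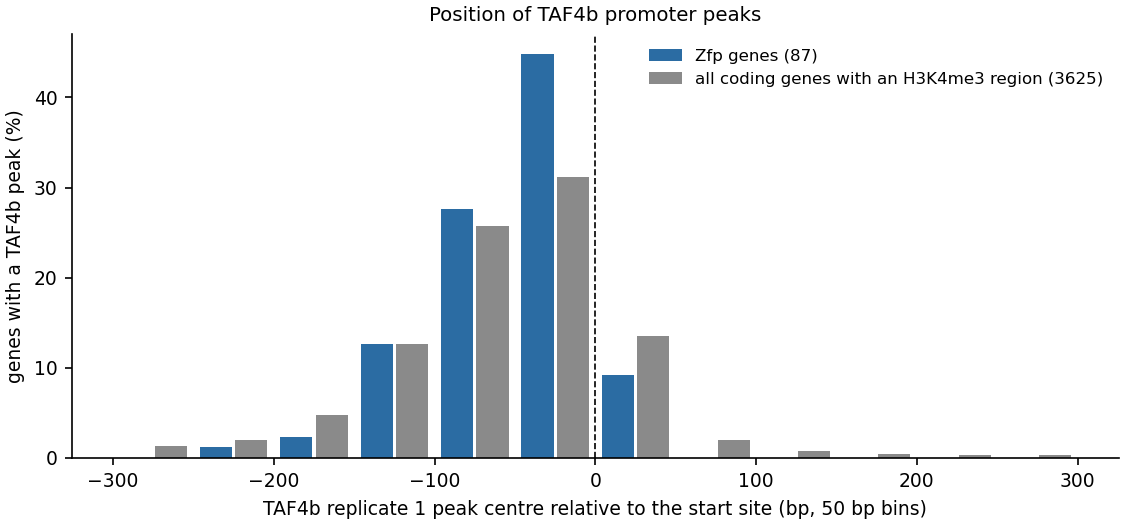
Bars give the share (%) of genes whose TAF4b replicate 1 peak centre falls in each bin of 50 bp relative to the start site (dashed line), for 87 Zfp genes and 3625 background genes. The bin from -50 to 0 bp holds 44.8% of the Zfp genes and 31.1% of the background; 2 Zfp genes lie farther upstream than the axis.

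The H3K4me3 regions of the Zfp genes in replicate 1 had medians near those of the background, with a lower upper quartile of width. Their width had a median of 1270 bp (quartiles 890 and 1551 bp, range 500 to 4396 bp), beside a median of 1341 bp and quartiles of 864 and 1789 bp for the background. Their score had a median of 89.4, at percentile 81.0 of the list, beside 86.5 and percentile 79.6. Regions of 3000 bp or more were listed at 1 of 213 Zfp genes (0.469%), beside 2.59% of the background, and regions at the smallest width of 500 bp at 13 (6.10%), beside 8.56%. The widest was at Zfp703, a NET-family gene amplified in breast cancers, with 4396 bp and a score of 381.6 (rank 24 of 64891), and it had no TAF4b peak.

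The other wide regions were those of Zfp516 (2826 bp), a factor known from brown fat, Zfp64 (2785 bp), Zfp668 (2784 bp) and Zfp958 (2619 bp). Of these 5 genes, only Zfp958 was listed with a TAF4b peak, at a score of 18.4. The Zfp668 region also covers the start of Zfp646, which lies outside the 213 genes and was listed with a TAF4b peak. Among the 13 genes at 500 bp, TAF4b was listed at 5, with scores of 40.7 (Zfp787), 27.3 (Zfp317), 17.9 (Zfp105), 16.9 (Zfp593) and 9.43 (Zfp326). It was not listed at Zfp72, Zfp185, Zfp235, Zfp345, Zfp395, Zfp638, Zfp704 and Zfp991. The 3 lowest H3K4me3 scores, 20.9 each, were those of Zfp317, Zfp395 and Zfp787, and the TAF4b scores of Zfp317 and Zfp787 lay above the list's median promoter score of 16.9. The peak overlapped the H3K4me3 region at Zfp317 and not at Zfp787.

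The genes on both sides of 100 bp downstream of the start site, the nominal end of the promoter class, were also compared. By the deposited distance this is no sharp limit, since the region centres of 22 of the 213 genes lay 101 to 594 bp downstream. Up to 100 bp, the chosen genes nearest to it were Zfp30, Zfp655 and Zfp763, with region centres at 99 bp, Zfp422 at 98 bp and Zfp738 at 95 bp. Their widths ran from 769 bp (Zfp738) to 1641 bp (Zfp655). Of the genes not chosen, the nearest past it were Zfp94 at 101 bp, Zfp324 and Zfp677 at 105 bp, Zfp61 at 106 bp and Zfp790 at 108 bp, with widths from 912 bp (Zfp790) to 1730 bp (Zfp61). The widths on the 2 sides overlap.

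Of the 169 Zfp genes left out by the promoter class, 109 had a start site covered by an H3K4me3 region that was not classed as their own promoter. That region was classed as intronic for 41, as a promoter for 34, of which 32 were named for another gene and 2 had no matched gene name, as exonic for 29, as a transcript end for 3 and as intergenic for 2. Zfp809, a KRAB protein known for silencing retroviruses, is such a gene, under a region of 3135 bp with its centre in an intron. So are Zfp42 (also known as Rex1) with 2323 bp, Zfp281 with 1930 bp, Zfp217 with 1307 bp and Zfp106 with 1380 bp. TAF4b replicate 1 had a promoter peak at 38 of the 169 (22.5%, 16.8 to 29.4), beside 10.8% of all coding genes without an H3K4me3 promoter region. These were 31 of the 109 (28.4%, 20.8 to 37.5) and 7 of the 60 with no such region (11.7%, 5.77 to 22.2). Start sites here were those of the canonical transcript and of transcripts named by promoter-class intervals, TAF4b peaks included. The split into 109 and 60 therefore partly uses the TAF4b peaks, and the 10.8% was not split in this way. In replicate 2 the count was 3 of 169 (1.78%), beside 1.29%, with 3 of 109 and 0 of 60.

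H3K4me3 replicate 2 listed a promoter region at 15 of the 213 Zfp genes (7.04%, 4.31 to 11.3), beside 7.55% of the background. The highest score was that of Zfp553, at 192.0 (rank 76 of 1730) over 975 bp, followed by Zfp46 and Zfp775 at 151.6 each (rank 221) and Zfp446 at 141.5 (rank 307). Next came Zfp936 (131.4), Zfp131 and Zfp174 (126.3 each), Zfp296 and Zfp451 (111.2 each), and Zfp184, Zfp523, Zfp64 and Zfp940 (101.1 each). Zfp367 and Zfp787 were at 96.0, the lowest score in that list. A TAF4b peak in replicate 1 was present at 10 of the 15 (66.7%, 41.7 to 84.8), beside 49.4% of background genes with such a region. Zfp787 was the gene of the 213 listed in all 4 lists.

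The share of Zfp genes with a TAF4b peak followed the order of H3K4me3 width. By quartile of width it was 17 of 54 genes (31.5%, 20.7 to 44.7), 19 of 53 (35.8%), 22 of 53 (41.5%) and 29 of 53 (54.7%, 41.5 to 67.3). The background showed the same order with a smaller range, at 30.9%, 34.3%, 42.4% and 43.9%. By quartile of H3K4me3 score the Zfp shares were 34.5%, 31.5%, 47.1% and 50.9%, beside 31.0%, 35.6%, 41.8% and 43.2%. The replicate 2 counts by width were 1, 0, 3 and 5 genes. The intervals of neighbouring quartiles overlap at each step, and the lowest and highest quartiles of width overlap as well.

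**Figure D3:**
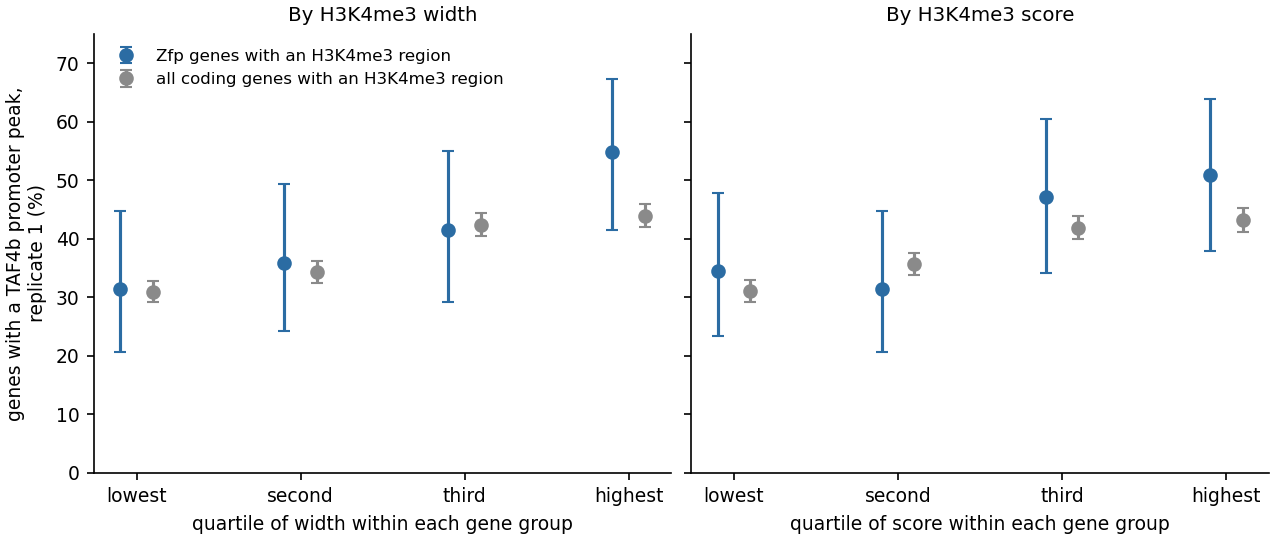
Points give the share (%) of genes with a TAF4b replicate 1 promoter peak by quartile of H3K4me3 width (left) and score (right), for the 213 Zfp genes and the 9568 background genes, each cut at its own quartiles. Bars are 95% Wilson intervals; the Zfp shares by width run from 31.5% to 54.7% and those of the background from 30.9% to 43.9%.

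The Zfp genes were then divided by the domains of their proteins. A KRAB box was found in the canonical protein of 134 of the 213 genes, 6 of which also have a SCAN domain, a dimerisation module. TAF4b replicate 1 was listed at 47 of the 134 (35.1%, 27.5 to 43.5), near the 37.9% of the background. Among the 79 without a KRAB box it was listed at 40 (50.6%, 39.8 to 61.4), and the 2 intervals overlap. In replicate 2 the counts were 3 of 134 (2.24%, 0.764 to 6.38) and 6 of 79 (7.59%, 3.53 to 15.6), beside 5.49% of the background. H3K4me3 replicate 2 had 5 of 134 (3.73%, 1.60 to 8.44) and 10 of 79 (12.7%, 7.02 to 21.8), beside 7.55%. The intervals overlap in both lists. For genes with a replicate 1 peak, each at its highest, the median percentile in the list was 55.0 for KRAB genes and 67.7 for the others. For background genes with a peak it was 64.3. The median over all promoter peaks, 58.9, counts every peak and is not a like measure.

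KRAB and other genes were also divided at the median H3K4me3 width. Among regions up to the median of 1270 bp, 17 of 73 KRAB genes had a TAF4b peak (23.3%, 15.1 to 34.2), beside 19 of 34 genes without a KRAB box (55.9%, 39.5 to 71.1), and these intervals do not overlap. The regions of these 2 groups were not alike, with median widths of 924 and 733 bp and median scores of 68.6 and 46.95. Among wider regions the shares were 30 of 61 (49.2%, 37.1 to 61.4) and 21 of 45 (46.7%, 32.9 to 60.9). KRAB genes outside clusters had 19 of 40 (47.5%, 32.9 to 62.5), and those inside had 28 of 94 (29.8%, 21.5 to 39.7). For genes without a KRAB box, 12 of 23 inside clusters (52.2%) and 28 of 56 outside had a peak. No difference between these groups of genes was tested, since genes are not replicates and the groups were split with their values known.

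**Figure D4:**
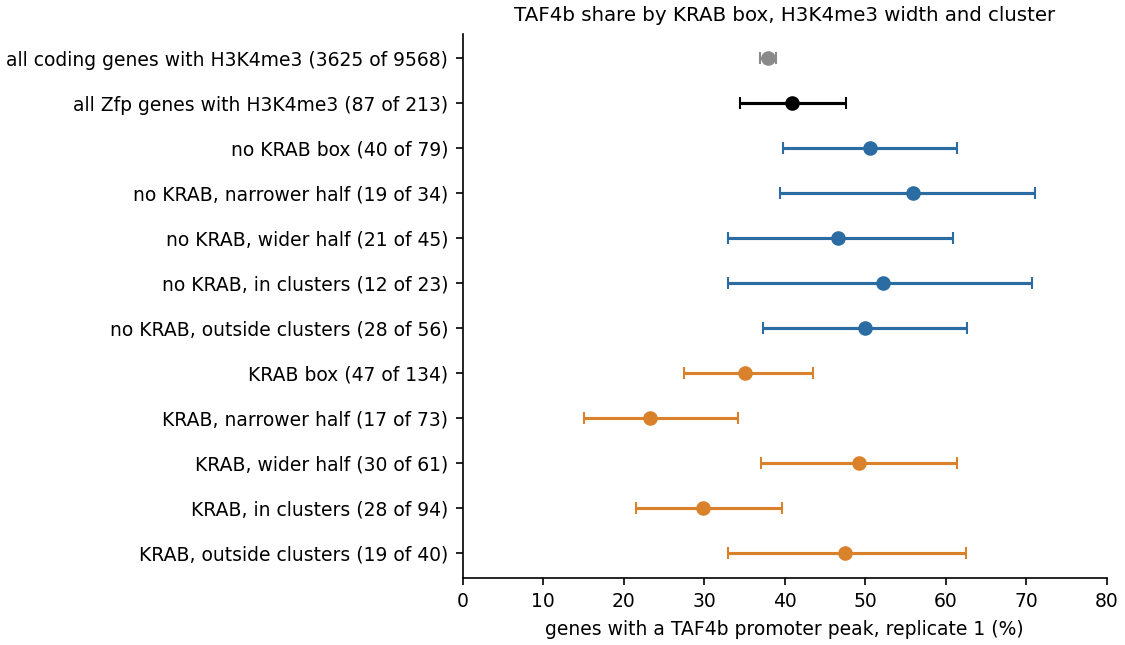
Points give the share (%) of genes with a TAF4b replicate 1 promoter peak and bars the 95% Wilson interval, for the background, all 213 Zfp genes, and the genes with (orange) and without (blue) a KRAB box, further split at the median H3K4me3 width of 1270 bp and by cluster. KRAB genes with narrower regions are lowest, at 23.3%.

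SCAN genes were few. All 5 genes with a SCAN domain and no KRAB box found had a TAF4b peak in replicate 1. They were Zfp444 (31.3), Zfp174 (29.8), Zfp263 (24.8), Zfp24 (22.8) and Zfp397 (16.4). Of the 6 with both domains, 3 had one: Zfp446 (26.8), Zfp213 (14.4) and Zfp110 (11.9). Zfp202, Zfp369 and Zfp445 had none. Together this is 8 of 11 (72.7%, 43.4 to 90.3). The domain was chosen with these values known, and the difference from the background was not tested. Genes with C2H2 fingers and neither domain had a peak at 34 of 71 (47.9%). The 3 genes in which no KRAB box, SCAN domain or C2H2 pattern was found were Zfp36, Zfp185 and Zfp703. Zfp36, which encodes the mRNA decay factor tristetraprolin, had a TAF4b score of 7.94, and Zfp185 and Zfp703 had no peak.

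Related families named by other symbols give a comparison. TAF4b replicate 1 was listed at 15 of 28 Zbtb genes with an H3K4me3 promoter region (53.6%, 35.8 to 70.5), 5 of 9 Zscan genes (55.6%, 26.7 to 81.1) and 4 of 6 Zkscan genes (66.7%, 30.0 to 90.3). Each of these intervals includes the background's 37.9% and overlaps those of the Zfp genes with and without a KRAB box.

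A cluster was taken as at least 3 protein-coding Zfp genes with neighbouring start sites up to 250 kb apart. There were 33 such clusters, holding 202 annotated Zfp genes and 117 of the 213 with H3K4me3, of which 94 have a KRAB box. Inside clusters 40 of 117 had a TAF4b peak in replicate 1 (34.2%, 26.2 to 43.2), and outside 47 of 96 (49.0%, 39.2 to 58.8). The background stood at 37.9%, and the 2 intervals overlap. In replicate 2 the counts were 4 of 117 (3.42%) and 5 of 96 (5.21%), beside 5.49%. Without the 8-gene cluster described next, the share inside was 36.7%. Chromosome 7 alone carried 60 of the 213 genes, of which 23 had a TAF4b peak (38.3%, 27.1 to 51.0), near the background's 37.9%. The 4 genes on X had none (interval 0 to 49.0), but Zfp275 and Zfp449 on X, outside the 213, had one.

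Counts in single clusters ran from none to all of the genes. Of the 19 with at least 3 of the H3K4me3 genes, 3 had no TAF4b peak at these genes and 2 had one at every such gene. The cluster from Zfp553 to Zfp629 (chr7:126832057-127215052) had an H3K4me3 promoter region at all 8 of its Zfp genes and TAF4b at 0 of them in either replicate. Zfp764 and Zfp747 in it had narrow regions of 805 and 823 bp, and Zfp689, Zfp553, Zfp629, Zfp688, Zfp771 and Zfp768 had 1419 to 2353 bp with scores from 113.3 to 146.1. Zfp553 in it had the highest H3K4me3 replicate 2 score of the Zfp genes. By contrast, the cluster from Zfp787 to Zfp28 (chr7:6160093-6386187) had TAF4b at 5 of its 6 H3K4me3 genes: Zfp787 (40.7), Zfp444 (31.3), Zfp667 (29.8), Zfp28 (28.8) and Zfp583 (13.4), with Zfp78 the exception.

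Among clusters with at least 3 H3K4me3 genes, those with a TAF4b peak at every such gene were Zfp263, Zfp174 and Zfp597 on chromosome 16, with scores of 24.8, 29.8 and 24.3, and Zfp110, Zfp329 and Zfp446 on chromosome 7. On chromosome 8 the cluster from Zfp868 to Zfp866 had TAF4b at 3 of its 4 H3K4me3 genes, and 2 of those, Zfp866 and Zfp869, were also in replicate 2. Zfp868 had a score of 28.3, and Zfp963 had no peak. No other of the 33 clusters had more than 1 Zfp gene in TAF4b replicate 2.

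The 3 clusters with most H3K4me3 genes had TAF4b at 3 of those genes each, and at 1 to 3 further Zfp genes without an H3K4me3 promoter region. The cluster from Zfp677 to Zfp946 (chr17:21603988-22643102) holds 18 Zfp genes, all KRAB, 12 of them with H3K4me3. Of the 12, Zfp53 and Zfp760 (16.4 each) and Zfp983 (9.93) had TAF4b, and Zfp51, Zfp54, Zfp229, Zfp820, Zfp942, Zfp944, Zfp948, Zfp994 and Zfp995 did not. Zfp946, outside the 12, also had TAF4b. Their H3K4me3 widths were mostly small, with a median of 908 bp, from 763 bp (Zfp54) to 2153 bp (Zfp942).

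The cluster from Zfp84 to Zfp146 (chr7:29467960-29869215) had 11 of 15 genes with H3K4me3. Of the 11, Zfp146 (21.3), Zfp14 (18.4) and Zfp383 (14.9) had TAF4b, as had Zfp420 and Zfp790 outside them. Zfp260, with the widest region there (2410 bp), had no TAF4b peak, nor had Zfp30, Zfp74, Zfp82, Zfp84, Zfp382, Zfp568 and Zfp940. The cluster from Zfp712 to Zfp273 (chr13:67209237-67961859) is the largest with 19 genes, all KRAB. It had H3K4me3 at 9 genes, of which Zfp595 and Zfp87 (13.9 each) and Zfp708 (10.4) had TAF4b and Zfp58, Zfp457, Zfp458, Zfp493, Zfp738 and Zfp759 did not. Outside the 9, Zfp456, Zfp459 and Zfp85 had TAF4b. In 3 clusters, with 12 Zfp genes on chromosomes 2 and 4, no gene had an H3K4me3 promoter region. Genes of such clusters are close copies of each other, reads from them can be lost or shared in alignment, and the part of this in the counts was not tested.

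**Figure D5:**
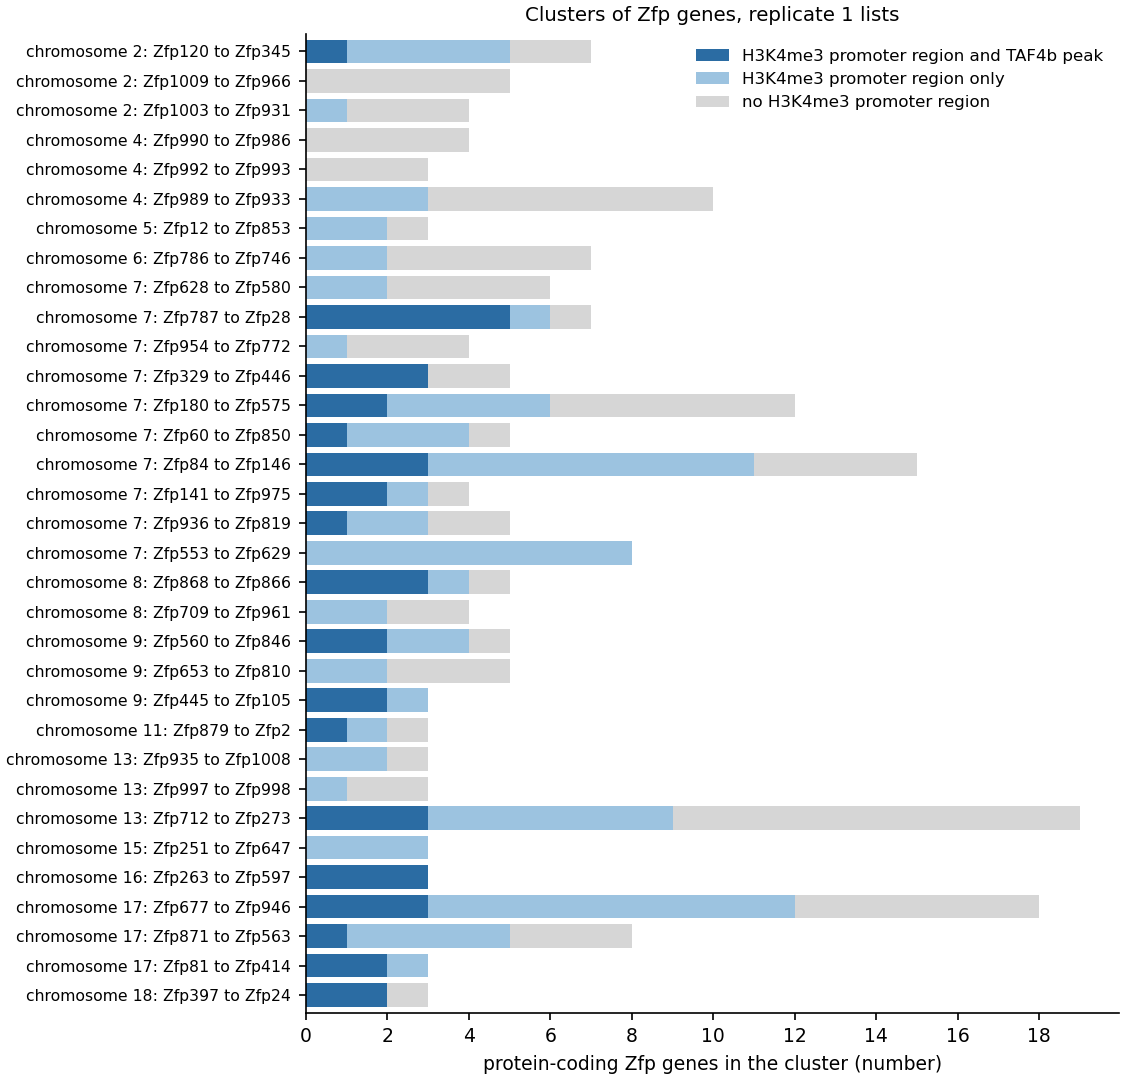
Each bar is 1 of the 33 clusters, named by chromosome and by its first and last gene, and its length is the number of protein-coding Zfp genes. Dark blue marks genes with an H3K4me3 promoter region and a TAF4b peak in the replicate 1 lists, light blue H3K4me3 alone and grey genes with no H3K4me3 promoter region; the Zfp553 to Zfp629 cluster is light blue at all 8 genes.

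Of 25 Zfp genes listed for a known role, 17 had an H3K4me3 promoter region, and 11 of these 17 had a TAF4b peak in replicate 1, beside 37.9% of the background, and none in replicate 2, beside 5.49%. The list was chosen with results known, and its count was not tested. Among the imprint regulators, Zfp57, which protects imprints from demethylation, had a TAF4b score of 7.94 (rank 7270) in a region of 1168 bp. Zfp445, which shares that role, had no TAF4b peak in a region of 653 bp. Zfp568, known instead as a repressor of Igf2, had no TAF4b peak in 775 bp. Among genes known for transposon control, Zfp932 had a score of 13.9 in 1558 bp, Zfp708 had 10.4 in 1618 bp, and Zfp819 had no peak in 1615 bp. All 3 TAF4b scores of these KRAB genes lie under the list's median promoter score of 16.9.

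Zfp541, a regulator of meiotic prophase in the testis, had a TAF4b score of 20.8 (rank 2102) and a small H3K4me3 region of 630 bp beside it. Zfp318 (20.3), Zfp207 (18.4), a spindle protein, Zfp335 (17.9) and Zfp148 (16.4) also had TAF4b peaks, in H3K4me3 regions from 630 bp (Zfp318) to 963 bp (Zfp148). No KRAB box was found in the proteins of these 5 genes. Zfp110 (11.9) and Zfp521 (9.93) had lower scores. Zfp37, Zfp59 and Zfp369 had no TAF4b peak in regions of 1828, 1551 and 1561 bp. Zfp281 and Zfp217, which lie outside the 213 genes, had TAF4b scores of 28.8 (rank 854) and 22.8 (rank 1718). The other known-role genes outside the 213, Zfp35, Zfp42, Zfp106, Zfp423, Zfp462 and Zfp809, had no TAF4b promoter peak in either replicate.

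The partners of KRAB proteins were looked at as the other genes of the pathway. Of 17 listed, 11 had an H3K4me3 promoter region, beside 44.0% of all 21769 coding genes. A TAF4b peak was listed at 12 in replicate 1, beside 22.7% of all coding genes, and at 4 in replicate 2, beside 3.13%. Trim28, the corepressor itself, had a TAF4b score of 17.9 (rank 2865) in an H3K4me3 region of 2827 bp, and Setdb1 had neither. Cbx3, which encodes heterochromatin protein HP1 gamma, had 60.5 (rank 11) in replicate 1 and 64.8 in replicate 2. Atf7ip (25.3 and 89.1), Gatad2b (34.7 and 89.1) and Sumo2 (25.3 and 48.6) also had peaks in both replicates. Partner genes with no TAF4b peak in either list were Setdb1, Cbx1, Chd3, Chd4 and Rif1.

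Fewer Zfp promoters than background promoters held a GC box, and more held an ETS site. In 200 bp around the start site, a GC box on either strand was found in 75 of 213 Zfp genes (35.2%, 29.1 to 41.8), beside 55.9% of the background (54.9 to 56.9). An ETS site was found in 49 (23.0%, 17.9 to 29.1), beside 12.5% (11.8 to 13.1). A CCAAT box was found in 63 (29.6%, 23.9 to 36.0), beside 25.4% (24.5 to 26.3), and these intervals overlap. A TATA box (TATAAA) was found in 1 (0.469%), beside 3.29%. The E box (CACGTG) was at 7.98% and 6.77%, the NRF1 site at 1.41% and 1.24%, and the YY1 site at 1.41% and 1.33%. At canonical start sites these pairs were 6.57% and 7.41%, 3.29% and 1.43%, and 0.939% and 1.06%. With start sites of the canonical transcripts the CCAAT share was 39.0% (32.7 to 45.7), beside 30.5% (29.6 to 31.4), and the intervals do not overlap, so that this turns on the start site used.

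Within the Zfp genes the motif shares split by KRAB box. CCAAT was found in 50 of 134 KRAB genes (37.3%, 29.6 to 45.7) and 13 of 79 others (interval 9.88 to 26.1). The GC box was found in 27.6% (20.7 to 35.7) and 48.1% (37.4 to 58.9), and neither pair of intervals overlaps. The ETS site was at 22.4% and 24.1%. Median GC content in the window was 57.5% for KRAB genes, 65.0% for the others and 65.0% for the background. For Zfp genes with and without a TAF4b peak in replicate 1, the shares were 37.9% and 33.3% for the GC box, 34.5% and 26.2% for CCAAT, and 26.4% and 20.6% for ETS. The background stood in the same order, at 60.4% and 53.1%, 30.5% and 22.3%, and 16.2% and 10.2%. Inside the TAF4b peaks themselves, 92 peaks at Zfp genes held CCAAT in 38.0% and the GC box in 39.1%, beside 37.6% and 57.6% of the 5243 promoter peaks of coding genes.

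Start sites of another gene on the opposite strand within 1000 bp were found for 39 Zfp genes (18.3%, 13.7 to 24.0), beside 21.1% of the background. Of the 39, 22 had a TAF4b peak in replicate 1 (56.4%, 41.0 to 70.7), and of the other 174, 65 had one (37.4%, 30.5 to 44.7). The background showed 51.6% and 34.2%. Replicate 2 peaks were at 5 of 39 (12.8%) and 4 of 174 (2.3%) Zfp genes, beside 9.01% and 4.54% of the background. The partner was coding for 6 of the 213 genes (2.82%, 1.30 to 6.01), beside 5.82% of the background, among them Zfp189 with Mrpl50, whose start sites lie 78 bp apart, and Zfp408 with Arhgap1, 69 bp apart, and those 2 had TAF4b scores of 23.3 and 21.8. At such promoters a peak cannot be assigned to 1 of the 2 genes.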

How the data were processed

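Deposited lists of CUT&RUN peaks (TAF4b) and regions (H3K4me3) from 4 libraries were used; the 2 IgG libraries were not analysed here. Per the submitters' processing notes, bcl2fastq 2.20, FastQC 0.11.5, Trim Galore 0.5.0, Bowtie2 2.3.0, SAMtools 1.9 and HOMER 4.10 were used, with genome GRCm39. Per the file headers, regions of each H3K4me3 library were annotated against Ensembl 103. The caller's threshold is not given in the sources used here. Each deposited interval carries the authors' score, whose normalization is not stated, a position, and a distance to the nearest start site. Scores were ranked within 1 list only, with ties sharing a rank. Width is end minus start, and a gene with several promoter regions was given its widest.

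Genes were named by transcript identifier through GENCODE M39, which matched at least 99.2% of promoter-class intervals in each list. The Zfp genes and the gene lists were chosen with earlier results of these data known. 1 further gene of that definition is not reported. Promoter peaks are those of the deposited promoter class, and peaks overlapped when they shared at least 1 bp. Domains were found in the translated canonical GENCODE coding sequence with pyhmmer 0.12.3, in place of RefSeq proteins, which were not used here. Its profiles were built on 154 KRAB and 8 SCAN sequences matched by pattern, with an E-value up to 1e-05. A domain encoded only in another transcript is missed, and so is one too divergent for these profiles. Sequences come from the GRCm39 genome, read with pysam 0.24.0. Start sites came from the deposited distance where that named the gene itself, at 192 of 213 Zfp genes, and otherwise from the canonical transcript. Genes named in the text are those with TAF4b in both replicates, the 8 with the highest TAF4b replicate 1 scores, those with the widest and narrowest H3K4me3 regions and the lowest H3K4me3 scores, those listed in H3K4me3 replicate 2, the genes of the 3 largest clusters and genes of known role; others were chosen after their values were seen. Counts, overlaps and intervals were tested on simulated lists. No significance test was run: with 1 list per library, shares are set beside those of the background. Alternatives covered the promoter definition, score thresholds, overlap, cluster limits, width measures and each replicate.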

Additional observations from a re-analysis of the deposited data

How the results depend on the processing

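Of 48 alternative values that keep both libraries, 40 stayed within the limit set around their main value and 8 moved. The limit was the counting interval for shares and a fixed factor for counts. For the median width it was the quartiles of the genes, a limit so wide that a move was unlikely. With only the higher-scoring 50% of each list, TAF4b was listed at 26.3% of the Zfp genes in replicate 1 (background 24.8%) and at 1.88% in replicate 2 (background 3.03%), and H3K4me3 replicate 2 at 9 genes (background 4.60%), so that each share stayed near its background. The mean TAF4b share ran from 4.23% to 40.8% when either replicate was left out, which with 2 libraries is each library's own share and no sign of stability. The other values that moved were added after the data were seen. Among splits of the genes, the share inside clusters was 52.2% for genes without a KRAB box. The KRAB share was 47.5% outside clusters, 49.2% in wider and 23.3% in narrower H3K4me3 regions. With canonical start sites, which is no split, the CCAAT share was 39.0%. Cluster limits of 100 or 500 kb or of 5 genes left the share inside clusters at 31.5% to 36.0%. No paired analysis was possible because the results come from no test, so that there was no fit to which a replicate block could be added. The short replicate 2 lists limit every statement on agreement between libraries, depth is unknown, and without the IgG libraries no antibody background was set beside the peaks.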
